A study of Mus musculus with 24 samples.

Results

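The aldehyde dehydrogenase genes of the mouse liver were followed in isolated hepatocytes. The 10 genes Aldh1b1, Aldh1a1, Aldh1a7, Aldh2, Aldh3a2, Aldh1l1, Aldh4a1, Aldh7a1, Aldh8a1 and Aldh9a1 were taken by symbol from tables of 55421 genes. All 10 were found and all 10 were among the 13847 genes that passed the filter on low counts. Aldh1b1 was chosen on its counts, because it differed between the diets in vehicle-treated animals of these same data. The values of the high-fat diet group against the normal diet group are therefore given as a description with no test, and Aldh1b1 is described without a test in every comparison, since each comparison shares a group with the choosing contrast. The remaining 9 genes were tested in the comparisons that involve rapamycin. These 9 genes and the lists of related genes were also chosen with earlier results of these data known. Their p-values and shares called are therefore not independent of that choice.

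RNA was sequenced from hepatocytes isolated by a 2-step perfusion of the liver of C57BL/6J mice. Animals received vehicle or rapamycin at 42 ppm (encapsulated, eRapa) from 4 months of age, all on a normal diet (ND) at first. At 18 months they stayed on ND with vehicle (ND+veh, n = 8) or moved for 9 weeks to a high-fat diet (HFD) with 60% of its calories as fat. The vehicle arm of that diet is called HFD+veh (n = 7) and the rapamycin arm HFD+eRapa (n = 9). All 3 groups were thus aged animals, rapamycin preceded the diet by many months, and no animals kept on ND with rapamycin were sampled, so that an effect of rapamycin without the diet cannot be told apart from its effect on the diet response. Each library came from a separately labelled sample, and all carried the same batch label.

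Aldehyde dehydrogenases oxidise reactive aldehydes to carboxylic acids with NAD+ or NADP+ as the electron acceptor. Hepatocytes hold many of them, in mitochondria, cytosol, endoplasmic reticulum and peroxisomes. Their substrates include acetaldehyde from ethanol, aldehydes from lipid peroxidation, retinaldehyde, fatty aldehydes and semialdehydes formed while amino acids, choline and folates are metabolised.

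Libraries held 17.7 to 25.9 M counts (M, 1000000 counts), and levels are given as counts per M after TMM scaling of library sizes (CPM). Hepatocyte markers were high in every library. The summed level of the 9 hepatocyte markers in the tables was 62413 to 165517 CPM in ND+veh, 101607 to 172122 CPM in HFD+veh and 56625 to 153735 CPM in HFD+eRapa, and none was at 0 in any library. Other cell types were also represented. The 10 macrophage markers summed to 41.7 to 1185 CPM in ND+veh (median 244), to 165 to 4545 CPM in HFD+veh (median 2336) and to 13.5 to 995 CPM in HFD+eRapa (median 185), and the library labelled HFD+veh replicate 6 was the highest. Summed levels of the 10 lymphocyte markers reached 40.6, 506 and 36.6 CPM in ND+veh, HFD+veh and HFD+eRapa, those of the 7 neutrophil markers 6.73, 47.7 and 12.1 CPM, those of the 9 endothelial markers 519, 890.3 and 398 CPM, those of the 10 stellate cell markers 257, 549.7 and 102 CPM and those of the 8 cholangiocyte markers 21.3, 364 and 60.0 CPM. The neutrophil marker Ly6g was at 0 in 22 of the 24 libraries. Single genes carried much of the lymphocyte and cholangiocyte sums. In HFD+veh the mean of Ptprc was 114 CPM, and that of the next highest lymphocyte marker, Nkg7, was 2.40 CPM. Spp1 had a mean of 133 CPM there, and the next highest cholangiocyte marker, Sox9, had 9.81 CPM. Among the stellate cell markers the mean of Reln was lower in HFD+veh (20.8 CPM) than in ND+veh (27.8 CPM), while the others were higher. In bulk samples of this kind, fewer cells of a type and less RNA per cell cannot be told apart.

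Aldh1b1 differed between groups by more than any other member. It encodes a mitochondrial enzyme that, like ALDH2, oxidises acetaldehyde and other short aldehydes. The gene (ENSMUSG00000035561.5) lies on the plus strand of GRCm38 chromosome 4, from 45799022 to 45804604, and the annotation gives it 2 exons with the whole coding sequence of 1557 bases in 1 of them. No other annotated gene overlaps it. The 250 bases before its start site are shown because this gene carries the main difference of the family, and the capitals mark matches on either strand to 4 searched runs of letters, which are the nuclear receptor half-site AGGTCA, the CCAAT box, the GC box GGGCGG and the TATA box TATAAA. They come from RefSeq, GRCm38.p6, plus strand, chr4:45798772-45799021.

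Aldh1b1 promoter: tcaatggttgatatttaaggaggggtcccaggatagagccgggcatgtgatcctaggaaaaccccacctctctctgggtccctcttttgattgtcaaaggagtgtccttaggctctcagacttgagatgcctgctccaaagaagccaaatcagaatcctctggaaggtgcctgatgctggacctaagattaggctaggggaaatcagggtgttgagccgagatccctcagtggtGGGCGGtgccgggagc

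The window held a single match, to GGGCGG, and none to the other letters. Of all 32851 promoter windows of this length, the GC box was found in 32.7%, the CCAAT box in 33.8%, the nuclear receptor half-site in 14% and the TATA box in 12.4%, on either strand, and matches to different motifs may overlap. A match is a run of letters and not a measured binding site.

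In ND+veh animals the Aldh1b1 level was low, with a lowest value of 1.14, a median of 14.6 and a highest value of 25.4 CPM. In HFD+veh animals the corresponding values were 144, 193 and 387 CPM. In HFD+eRapa animals they were 16.7, 35.8 and 56.5 CPM. The HFD+veh animals lay above every animal of both other groups, and 8 of 9 HFD+eRapa animals lay above the highest ND+veh animal. Group means were 12.7 ± 8.42 (SD, n = 8), 242 ± 95.6 (SD, n = 7) and 37.5 ± 13.6 CPM (SD, n = 9). The fitted log2 difference was 4.26 (SE 0.47) for HFD+veh against ND+veh, a ratio of 19.1, which is the value that chose the gene. HFD+eRapa animals were 6.47-fold lower than HFD+veh animals, a log2 difference of -2.69 (SE 0.42), and remained 2.95-fold above ND+veh animals, a log2 difference of 1.56 (SE 0.41). Without the library labelled HFD+veh replicate 6, the values were 4.32, -2.76 and 1.55, and with an immune score, the mean z-score of 16 macrophage, lymphocyte and neutrophil marker genes, added to the model they were 4.49, -2.87 and 1.61. The low ND+veh values spread over a wide range. Their coefficient of variation was 66.6%, against 39.4% in HFD+veh and 36.2% in HFD+eRapa.

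**Figure D1:**
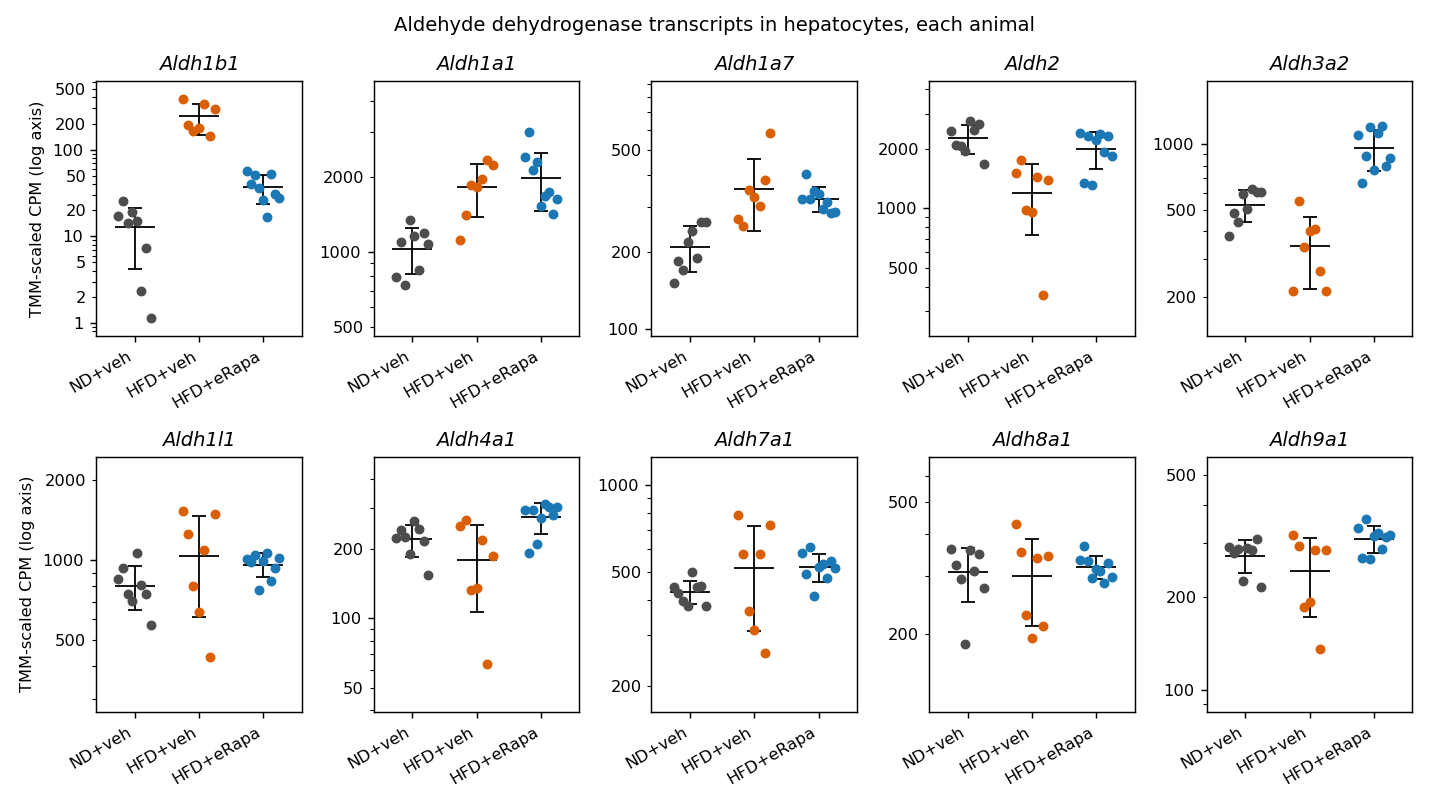
Level of each of the 10 aldehyde dehydrogenases in each animal, in TMM-scaled CPM on a log axis that differs between panels, with points for animals of ND+veh, HFD+veh and HFD+eRapa, horizontal ticks for group means and bars for 1 SD. Aldh1b1 in HFD+veh (144 to 387 CPM) lies apart from both other groups, Aldh3a2 is highest in HFD+eRapa (669 to 1218 CPM), and Aldh2 is low in 1 HFD+veh library (361 CPM).

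Aldh1a1 and Aldh1a7 form a pair of close copies. Aldh1a1 encodes the cytosolic retinaldehyde dehydrogenase that makes retinoic acid, and Aldh1a7 is a rodent copy of it. Both lie on GRCm38 chromosome 19, Aldh1a1 (ENSMUSG00000053279.8) from 20492715 to 20643465 on the plus strand and Aldh1a7 (ENSMUSG00000024747.3) from 20692953 to 20727562 on the minus strand. Their coding sequences, 1503 bases each, were 91.6% identical, against 69.5% for Aldh1b1 and Aldh2, the next most similar pair of members. The first 90 coding bases are printed to show how much of a read the pair can share, with the 5 differing bases in capitals.

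Aldh1a1 coding bases: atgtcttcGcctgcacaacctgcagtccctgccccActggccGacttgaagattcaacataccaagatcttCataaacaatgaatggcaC
Aldh1a7 coding bases: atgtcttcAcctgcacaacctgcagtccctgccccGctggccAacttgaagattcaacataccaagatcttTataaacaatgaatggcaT

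Of all 50-base stretches of either coding sequence, 10.4% occurred unchanged in the other, and the longest identical run in the alignment was 100 bases. Some reads could therefore have been counted for the wrong copy or not at all, and the split of counts between Aldh1a1 and Aldh1a7 is uncertain to that extent. The start regions of the pair are also alike. Their 250-base windows, the later of 2 RefSeq windows for Aldh1a1 (chr19:20601718-20601967, plus strand) and the single window for Aldh1a7 (chr19:20727557-20727806, minus strand), matched at 65.3% of alignment columns, whereas the earlier Aldh1a1 window matched at 49.2%. They are shown because both genes had similar group differences, with the same letters in capitals as above.

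Aldh1a1 promoter: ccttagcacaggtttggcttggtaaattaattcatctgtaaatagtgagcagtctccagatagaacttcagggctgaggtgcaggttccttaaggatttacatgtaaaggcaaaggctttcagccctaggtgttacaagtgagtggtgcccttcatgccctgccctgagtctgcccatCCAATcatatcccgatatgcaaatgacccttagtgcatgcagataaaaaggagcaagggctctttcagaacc
Aldh1a7 promoter: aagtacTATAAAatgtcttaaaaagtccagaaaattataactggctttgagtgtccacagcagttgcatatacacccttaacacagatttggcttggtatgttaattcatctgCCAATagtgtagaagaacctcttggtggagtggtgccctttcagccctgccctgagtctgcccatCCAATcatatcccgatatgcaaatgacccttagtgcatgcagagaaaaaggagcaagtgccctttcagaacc

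The Aldh1a1 window held 1 match to CCAAT, and the Aldh1a7 window held 2 matches to CCAAT and a TATA box match. In all, 8 of the 10 genes had a RefSeq promoter window, and Aldh2 and Aldh7a1 had none in the table. CCAAT also occurred in the windows of Aldh1l1 (2 matches), Aldh3a2 (1), Aldh4a1 (3) and Aldh9a1 (1).

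Aldh1a1 was at 739, 1083 and 1346 CPM (lowest, median and highest) in ND+veh. In HFD+veh it was at 1111, 1843 and 2322 CPM, and in HFD+eRapa at 1412, 1742 and 3008 CPM. Every HFD+eRapa animal was above every ND+veh animal, 6 of 7 HFD+veh animals were too, and both high-fat groups overlapped each other. The fitted log2 difference between HFD+veh and ND+veh was 0.81 (SE 0.18). Aldh1a1 rose in HFD+eRapa against ND+veh by 0.94 on the log2 scale (SE 0.17, adjusted p = 0.000495), and its difference between HFD+eRapa and HFD+veh was 0.13 (SE 0.17, adjusted p = 0.604). With the immune score in the model the last value became 0.52 with an adjusted p of 0.0420.

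Aldh1a7 ran from 151 through a median of 204 to 261 CPM in ND+veh. It ran from 252 through 327 to 579.6 CPM in HFD+veh and from 284 through 321 to 401 CPM in HFD+eRapa. The order of the group medians was thus like that of Aldh1a1, with all HFD+eRapa animals and 6 of 7 HFD+veh animals above the ND+veh range. Its log2 difference was 0.75 (SE 0.15) for HFD+veh against ND+veh. Aldh1a7 rose by 0.62 in HFD+eRapa against ND+veh (SE 0.14, adjusted p = 0.00451), and HFD+eRapa differed from HFD+veh by -0.12 (SE 0.15, adjusted p = 0.553).

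Aldh2, the main mitochondrial enzyme of acetaldehyde oxidation, had the opposite sign to Aldh1b1 in both high-fat comparisons. The gene (ENSMUSG00000029455.14) lies on the minus strand of GRCm38 chromosome 5, from 121566027 to 121593824. ND+veh animals had 1677, 2272 and 2742 CPM as the lowest, median and highest values. HFD+veh animals had 361, 1392 and 1749 CPM, and HFD+eRapa animals had 1309.6, 2211 and 2400.5 CPM. Of the HFD+veh animals, 6 of 7 lay below every ND+veh animal, and 7 of 9 HFD+eRapa animals lay above every HFD+veh animal. The log2 difference was -0.92 (SE 0.23) for HFD+veh against ND+veh. Aldh2 rose by 0.74 in HFD+eRapa against HFD+veh (SE 0.22, adjusted p = 0.0131). It differed by -0.18 between HFD+eRapa and ND+veh (SE 0.21, adjusted p = 0.654). The lowest HFD+veh value came from replicate 6, the library with the highest macrophage marker sum, and without it the values were -0.79, 0.59 (adjusted p = 0.0154) and -0.20. With the immune score in the model, the rise in HFD+eRapa against HFD+veh was 0.41 with an adjusted p of 0.287.

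Aldh3a2 had the largest rise of the 9 tested members in HFD+eRapa against HFD+veh. It encodes fatty aldehyde dehydrogenase, which oxidises long-chain aldehydes at the endoplasmic reticulum and peroxisome, and lies on the minus strand of GRCm38 chromosome 11 (ENSMUSG00000010025.19, from 61223417 to 61267464). In ND+veh its lowest, median and highest values were 383, 548 and 622 CPM. In HFD+veh they were 213, 340.2 and 551 CPM, and in HFD+eRapa 669, 889 and 1218 CPM. All 9 HFD+eRapa animals were above all animals of both vehicle groups, whereas ND+veh and HFD+veh overlapped. Aldh3a2 rose 2.81-fold in HFD+eRapa against HFD+veh, by 1.49 on the log2 scale (SE 0.19, adjusted p = 1.6e-05). It rose 1.81-fold in HFD+eRapa against ND+veh, by 0.86 (SE 0.18, adjusted p = 0.00185). The log2 difference between HFD+veh and ND+veh was -0.63 (SE 0.19). With the immune score in the model, the values against HFD+veh and against ND+veh were 1.56 and 0.87.

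The remaining members act in amino acid, folate and carnitine metabolism. Aldh4a1 encodes the proline-degrading pyrroline-5-carboxylate dehydrogenase. Its level was 153, 224 and 264 CPM (lowest, median and highest) in ND+veh, 63.3, 186 and 266 CPM in HFD+veh and 192, 293 and 312 CPM in HFD+eRapa, so that the groups overlapped. Aldh4a1 rose by 0.61 in HFD+eRapa against HFD+veh (SE 0.20, adjusted p = 0.0241), and 7 of 9 treated animals were above the HFD+veh range. This call was lost without HFD+veh replicate 3 (0.55, adjusted p = 0.0614) or replicate 4 (0.56, adjusted p = 0.0600), in a fit of only both groups compared (0.61, adjusted p = 0.0566) and with the immune score in the model (0.27, adjusted p = 0.420). Its differences were -0.29 (SE 0.21) for HFD+veh against ND+veh and 0.32 (SE 0.19, adjusted p = 0.317) for HFD+eRapa against ND+veh.

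Aldh9a1, which encodes the trimethylaminobutyraldehyde dehydrogenase of carnitine synthesis, had means of 274 ± 33.5 (SD, n = 8), 243 ± 70.2 (SD, n = 7) and 311 ± 30.6 CPM (SD, n = 9) in ND+veh, HFD+veh and HFD+eRapa. HFD+eRapa differed from HFD+veh by 0.35 (SE 0.14, adjusted p = 0.0574). That p was under 0.05 with DESeq2 (0.0475) and with limma voom (0.0410). Aldh1l1, the cytosolic formyltetrahydrofolate dehydrogenase, was at 803 ± 150 (SD, n = 8), 1038 ± 426 (SD, n = 7) and 964 ± 98.1 CPM (SD, n = 9). Aldh7a1, the aminoadipic semialdehyde dehydrogenase of lysine degradation, was at 426 ± 40.0 (SD, n = 8), 515 ± 205 (SD, n = 7) and 519.9 ± 58.0 CPM (SD, n = 9). Aldh8a1, which acts in the kynurenine branch of tryptophan degradation, was at 307 ± 57.7 (SD, n = 8), 300.1 ± 88.6 (SD, n = 7) and 318 ± 25.5 CPM (SD, n = 9). None of these 4 genes passed the test in either rapamycin comparison, with log2 differences between -0.11 and 0.35 against HFD+veh and between 0.05 and 0.29 against ND+veh. Other annotated genes overlap Aldh1a1, Aldh2, Aldh1l1, Aldh4a1 and Aldh7a1, and since the counting is not stated to use strand, reads from overlapping genes cannot be told apart.

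HFD+eRapa against HFD+veh gave 3 calls (adjusted p under 0.05) among the 9 tested members, those of Aldh2, Aldh3a2 and Aldh4a1, and all 3 rose. That is 33.3%, with a background of 32% among all genes tested, made up of 10.9% higher and 21.1% lower. In HFD+eRapa against ND+veh Aldh1a1, Aldh1a7 and Aldh3a2 were called, again 33.3% and all higher, with a background of 13.5% (6.93% higher, 6.54% lower). Groups did not overlap for 1 of these 9 genes, Aldh3a2, in the first comparison and for 3 in the second, where 2.59% and 3.37% of all genes tested did not overlap. The median log2 difference of the 9 genes was 0.13 and 0.29, with -0.04 and -0.03 over all genes. Aldh1b1 is left out of these counts, and no count of calls is given for HFD+veh against ND+veh, because that contrast chose it. Aldh1b1 was also the single member whose vehicle groups did not overlap, as 2.44% of all genes did not, from which nothing is read. The 9 genes were listed with earlier results of these data known, which limits what these shares can show. All 3 comparisons share groups pairwise and are not independent of each other.

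**Figure D2:**
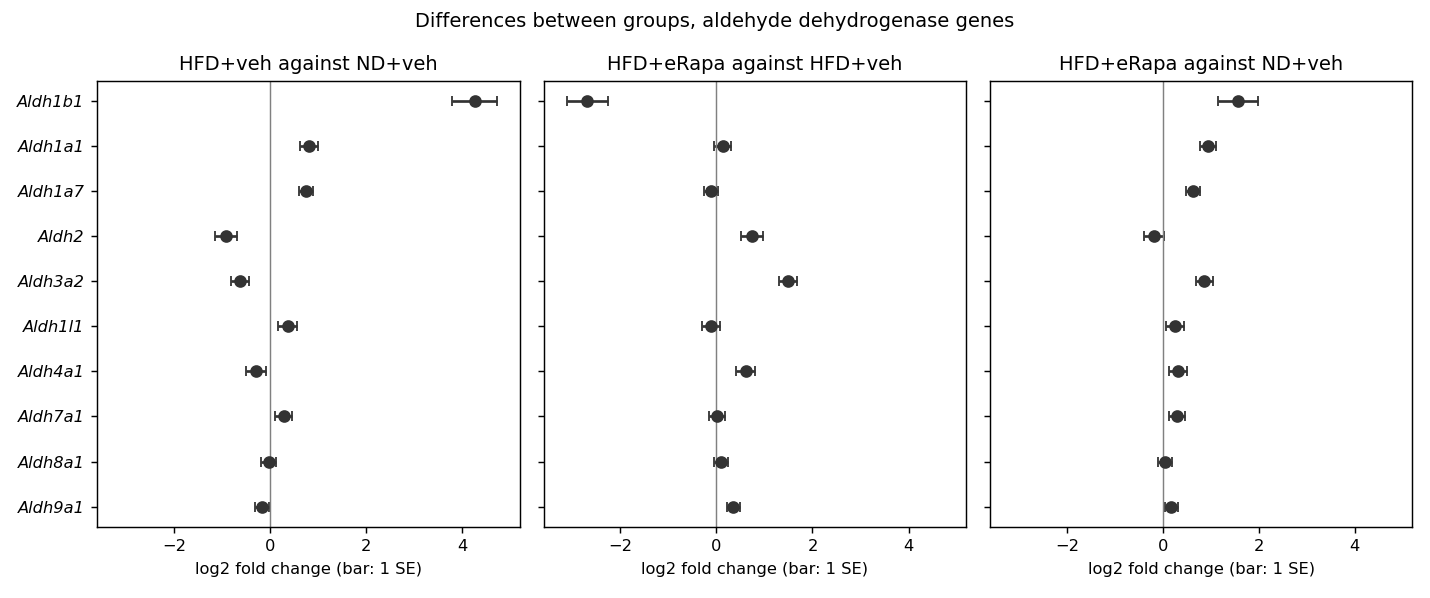
Fitted log2 fold change of each member in the 3 comparisons, with points for estimates and bars for 1 SE. Aldh1b1 is far to the right in HFD+veh against ND+veh (4.26) and to the left in HFD+eRapa against HFD+veh (-2.69), while Aldh3a2 has the largest positive value in HFD+eRapa against HFD+veh (1.49).

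Variation among animals also differed by group. The coefficient of variation of CPM was largest in HFD+veh for 8 of 10 members, in ND+veh for 1 and in HFD+eRapa for 1. For Aldh1l1 it was 41.0% in HFD+veh against 18.7% in ND+veh and 10.2% in HFD+eRapa, and for Aldh7a1 it was 39.8% against 9.40% and 11.2%. Single libraries recurred at the ends of the ranges. HFD+veh replicate 6 was the lowest of its group for 6 members and HFD+veh replicate 1 the highest for 5, while ND+veh replicate 8 was the lowest of its group for 6. The immune score was highest of the HFD+veh group in replicate 6 (1.70) and lowest in replicate 1 (-0.50), and ND+veh replicate 8 had the highest score of its group (0.78). The part of these other cells in the spread was not tested.

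Levels of different members were compared on the FPKM scale, which divides by gene length. In ND+veh the order of mean FPKM was Aldh2 (1945), Aldh1a1 (517), Aldh7a1 (264), Aldh1l1 (257), Aldh3a2 (196), Aldh8a1 (137), Aldh4a1 (113), Aldh1a7 (101), Aldh9a1 (96.5) and Aldh1b1 (6.83). Aldh2 exceeded Aldh1a1 in all 8 animals, and Aldh9a1 exceeded Aldh1b1 in all 8. The middle of the list was less settled, since Aldh4a1 exceeded Aldh1a7 in 5 of 8 animals and Aldh1a7 exceeded Aldh9a1 in 4 of 8.

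In HFD+veh the first 2 places were close. Aldh2 had a mean of 959.7 FPKM and Aldh1a1 one of 889.9 FPKM, and Aldh2 was the higher in 3 of 7 animals. Aldh1b1 moved to the eighth place with 115 FPKM, above Aldh4a1 in 6 of 7 animals. In HFD+eRapa Aldh2 led again (1557 FPKM, above Aldh1a1 in 7 of 9 animals), Aldh3a2 was the third with 329 FPKM, and Aldh1b1 was again the last with 17.01 FPKM, below Aldh9a1 in 9 of 9. Which places a gene held in HFD+veh follows in part from the contrast that chose Aldh1b1 and is a description.

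Summed over the 10 genes, the family had 3633 ± 463 FPKM (SD, n = 8) in ND+veh, 3168 ± 523 FPKM (SD, n = 7) in HFD+veh and 3882 ± 494 FPKM (SD, n = 9) in HFD+eRapa, and the ranges of the 3 groups overlapped. The composition of that sum differed more than its size. Aldh2 made up 53.4%, 29.3% and 39.7% of it in ND+veh, HFD+veh and HFD+eRapa. Aldh1a1 made up 14.2%, 29.4% and 23.6%. Aldh3a2 made up 5.42%, 3.98% and 8.47%. Aldh1b1 made up 0.182%, 3.63% and 0.438%, so that it stayed a small part of the family's transcripts in every group.

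**Figure D3:**
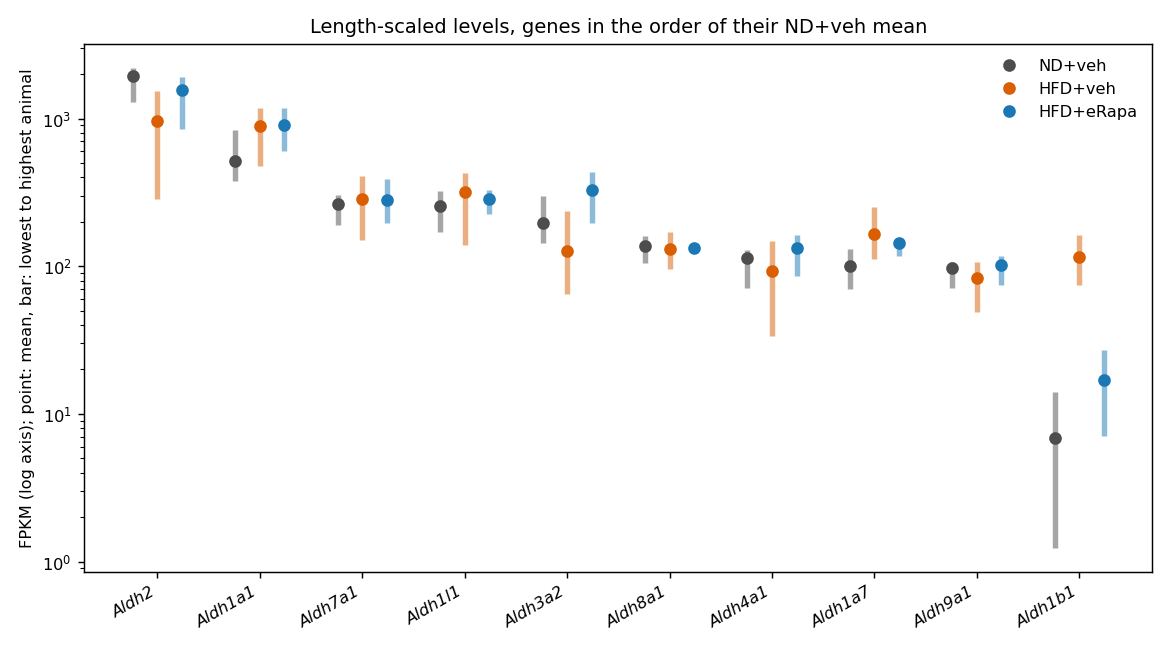
Length-scaled level (FPKM, log axis) of the 10 genes in the order of their ND+veh means, with points for group means and bars from the lowest to the highest animal. Aldh2 is the highest on ND (1945 FPKM) and meets Aldh1a1 in HFD+veh (959.7 and 889.9 FPKM), and Aldh1b1 spans from 6.83 FPKM in ND+veh to 115 FPKM in HFD+veh.

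The genes whose pattern over the 24 libraries was most like that of Aldh1b1 were sought among 7827 genes with a mean log2 CPM of at least 3. The highest Spearman rank correlations were those of Sulf2 (0.94), Cryl1 (0.93), Sfxn1 (0.90), Antxr2 (0.89) and Olfm3 (0.88). Sulf2 encodes a heparan sulfate sulfatase, Cryl1 a gulonate dehydrogenase, Sfxn1 a mitochondrial serine transporter and Antxr2 a cell surface receptor that binds collagen. The lowest were those of Igfbp2, a binding protein of insulin-like growth factors (-0.88), Avpr1a, a vasopressin receptor (-0.88), and Nfyb, a subunit of the factor that binds CCAAT (-0.87). The 24 points share the group differences that chose Aldh1b1. Once group means were removed, the correlations were 0.55 for Sulf2, 0.67 for Cryl1, 0.57 for Sfxn1, 0.60 for Antxr2, 0.23 for Olfm3, 0.02 for Igfbp2, 0.07 for Avpr1a and -0.22 for Nfyb. By Pearson correlation 3 of the leading 5 genes were shared with the Spearman list, and with group means removed none was.

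Cryl1 had a mean of 7.76 ± 2.50 CPM (SD, n = 8) in ND+veh, 46.7 ± 17.01 CPM (SD, n = 7) in HFD+veh and 15.4 ± 3.81 CPM (SD, n = 9) in HFD+eRapa, and its HFD+veh animals did not overlap with either other group. Avpr1a ran the other way, with 54.4 ± 15.5 CPM (SD, n = 8), 2.98 ± 2.18 CPM (SD, n = 7) and 22.1 ± 8.56 CPM (SD, n = 9). Both genes were picked by their correlation with Aldh1b1, so their group differences follow from that choice and nothing is read from them. Of all genes tested, 2.44% did not overlap in HFD+veh against ND+veh and 2.59% in HFD+eRapa against HFD+veh. Among the members themselves, the correlation with Aldh1b1 was highest for Aldh1a1 (0.61) and Aldh1a7 (0.59) and lowest for Aldh2 (-0.64), and after removal of group means these were 0.08, -0.26 and 0.22.

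The other genes of the pathway were taken from lists of related genes. Of 11 further aldehyde dehydrogenase genes, 6 passed the filter, and Aldh1a2, Aldh1a3, Aldh3a1, Aldh3b2 and Aldh3b3 did not, with at most 37 counts in any library. In the vehicle comparison 2 rose and 1 fell, where the background over all genes tested was 25.9% (16% higher, 9.86% lower). In HFD+eRapa against HFD+veh 1 rose and 2 fell, and in HFD+eRapa against ND+veh 1 rose and 1 fell. With only 6 genes these counts are 50%, 50% and 33.3%. Aldh6a1, the methylmalonate semialdehyde dehydrogenase of valine degradation, was at 380 ± 44.9 (SD, n = 8), 524 ± 111 (SD, n = 7) and 568.3 ± 89.8 CPM (SD, n = 9) in ND+veh, HFD+veh and HFD+eRapa. Aldh6a1 rose by 0.46 in HFD+veh against ND+veh (SE 0.13, adjusted p = 0.0143) and by 0.58 in HFD+eRapa against ND+veh (SE 0.12, adjusted p = 0.00234), where the groups did not overlap. The first call was lost without ND+veh replicate 1 or HFD+veh replicate 6 (adjusted p of 0.0514 and 0.0502). Aldh5a1, the succinic semialdehyde dehydrogenase, was at 61.6, 50.8 and 77.9 CPM and rose by 0.62 in HFD+eRapa against HFD+veh (SE 0.17, adjusted p = 0.00967). That difference was 0.32 with the immune score in the model (adjusted p = 0.242). Aldh16a1 was at 77.2 ± 11.9 (SD, n = 8), 55.6 ± 18.2 (SD, n = 7) and 70.7 ± 12.4 CPM (SD, n = 9) in ND+veh, HFD+veh and HFD+eRapa and was called in no comparison.

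Aldh1l2, the mitochondrial formyltetrahydrofolate dehydrogenase, was scarce, at 1.22 to 2.37 CPM in ND+veh, 0 to 0.529 CPM in HFD+veh and 0 to 0.300 CPM in HFD+eRapa. It fell in HFD+veh against ND+veh (-2.82, SE 0.53, adjusted p = 0.00101) and in HFD+eRapa against ND+veh (-3.73, SE 0.53, adjusted p = 3.8e-05), and in both cases the groups did not overlap. Aldh3b1, a dehydrogenase of medium and long-chain aldehydes, had means of 2.58, 7.92 and 1.20 CPM. It rose by 1.61 in HFD+veh against ND+veh (adjusted p = 0.0342), a call lost without any of 8 libraries (adjusted p of 0.0572 to 0.104) and -0.11 with the immune score in the model. It fell in HFD+eRapa against HFD+veh (-2.71, SE 0.55, adjusted p = 0.00125). Aldh18a1, which makes pyrroline-5-carboxylate for proline synthesis, had means of 2.02, 4.35 and 0.907 CPM and fell in that comparison too (-2.25, SE 0.68, adjusted p = 0.0146). In HFD+eRapa against HFD+veh the values with the immune score in the model were -0.80 (adjusted p = 0.139) for Aldh3b1 and 0.08 (adjusted p = 0.920) for Aldh18a1. The adjusted p of Aldh18a1 was 0.0511 without HFD+veh replicate 6 and 0.0647 with limma voom.

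Some alcohol and retinol dehydrogenases stand before the aldehyde dehydrogenases, since they form acetaldehyde and retinaldehyde. The list was not split by the direction in which each enzyme acts. Of 16 tested, 1 rose and 6 fell in HFD+veh against ND+veh, 2 rose and none fell in HFD+eRapa against HFD+veh, and 3 rose and 5 fell in HFD+eRapa against ND+veh. These are 43.8%, 12.5% and 50% called, beside 25.9%, 32% and 13.5% of all genes. Their median log2 differences were -0.27, 0.16 and -0.09. Rdh9, a retinol dehydrogenase of the short-chain family, was at 21.8 ± 5.88 (SD, n = 8), 5.01 ± 3.70 (SD, n = 7) and 7.98 ± 3.61 CPM (SD, n = 9). It fell by 2.12 in HFD+veh against ND+veh (SE 0.37, adjusted p = 0.000570) and by 1.45 in HFD+eRapa against ND+veh (SE 0.33, adjusted p = 0.00451). Adh4, an alcohol dehydrogenase that also acts on retinol, was at 183 ± 45.9 (SD, n = 8), 116 ± 33.5 (SD, n = 7) and 221 ± 43.5 CPM (SD, n = 9) and rose by 0.93 in HFD+eRapa against HFD+veh (SE 0.17, adjusted p = 0.000647). Rdh5, another retinol dehydrogenase, was at 12.0, 19.4 and 18.8 CPM and rose by 0.69 and by 0.65 in HFD+veh and in HFD+eRapa against ND+veh (adjusted p = 0.0224 and 0.0344). The first of these calls was lost without HFD+veh replicate 1 (adjusted p = 0.0576) and the second without any of 10 libraries (adjusted p of 0.0502 to 0.0675), and neither was made with limma voom (the second with an adjusted p of 0.0618).

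Of 15 tested genes of retinoid transport, storage and signalling, 1 rose and 3 fell in HFD+veh against ND+veh, 3 rose and 2 fell in HFD+eRapa against HFD+veh, and 1 rose and 1 fell in HFD+eRapa against ND+veh. The shares called, 26.7%, 33.3% and 13.3%, were near those of all genes. Ces1d, a carboxylesterase that hydrolyses retinyl esters and other lipids, was at 667, 376 and 553 CPM and fell by 0.83 in HFD+veh against ND+veh (SE 0.23, adjusted p = 0.0123). Rxra, the retinoid X receptor that pairs with other nuclear receptors, was at 351, 287 and 422 CPM and rose by 0.55 in HFD+eRapa against HFD+veh (SE 0.20, adjusted p = 0.0364), a call lost without any of 8 libraries (adjusted p of 0.0523 to 0.0859). It was 0.10 with the immune score in the model (adjusted p = 0.732). Lrat, the enzyme that stores retinol as esters and is itself a stellate cell marker, was among those that fell in HFD+eRapa against HFD+veh. Its means were 18.6 CPM in HFD+veh and 4.00 CPM in HFD+eRapa. The HFD+veh animals ran from 3.18 through a median of 9.95 to 49.1 CPM, with the highest value in replicate 6. The HFD+eRapa animals ran from 1.58 through 3.52 to 8.44 CPM. Lrat was named after its values were seen, and no alternative fits were recorded for it.

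A further list held other enzymes that form or remove aldehydes and carbonyls. Of 27 tested, 7 rose and 3 fell in HFD+veh against ND+veh, 5 rose and 12 fell in HFD+eRapa against HFD+veh, and 5 rose and 7 fell in HFD+eRapa against ND+veh, that is 37%, 63% and 44.4% called beside 25.9%, 32% and 13.5% of all genes. Cyp2e1, the cytochrome that oxidises ethanol and other small molecules, had a lowest, median and highest value of 2968, 4503 and 6627 CPM in ND+veh. It had 459, 935 and 3584 CPM in HFD+veh and 4096, 4886 and 6625 CPM in HFD+eRapa. Cyp2e1 fell by 1.93 in HFD+veh against ND+veh (SE 0.32, adjusted p = 0.000360) and rose by 2.04 in HFD+eRapa against HFD+veh (SE 0.32, adjusted p = 0.000140), where the groups did not overlap.

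Gsta2, a glutathione transferase that conjugates lipid peroxidation products, went the other way. Its values were 7.83, 23.3 and 62.3 CPM in ND+veh, 38.4, 68.6 and 135 CPM in HFD+veh and 2.79, 7.31 and 13.2 CPM in HFD+eRapa. It rose by 1.58 in HFD+veh against ND+veh (SE 0.37, adjusted p = 0.00527) and fell by 3.23 in HFD+eRapa against HFD+veh (SE 0.38, adjusted p = 8.7e-06), with no overlap in the second case, and it fell by 1.65 in HFD+eRapa against ND+veh (SE 0.35, adjusted p = 0.00270). Gsta1 is a near-identical copy, so the assignment of reads to Gsta2 is uncertain. Aox3, a hepatic aldehyde oxidase, was at 483 ± 121 (SD, n = 8), 569.7 ± 254 (SD, n = 7) and 1313 ± 258 CPM (SD, n = 9). It rose in HFD+eRapa by 1.20 against HFD+veh (SE 0.23, adjusted p = 0.000716) and by 1.44 against ND+veh (SE 0.22, adjusted p = 7.9e-05), with all treated animals above the ND+veh range.

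**Figure D4:**
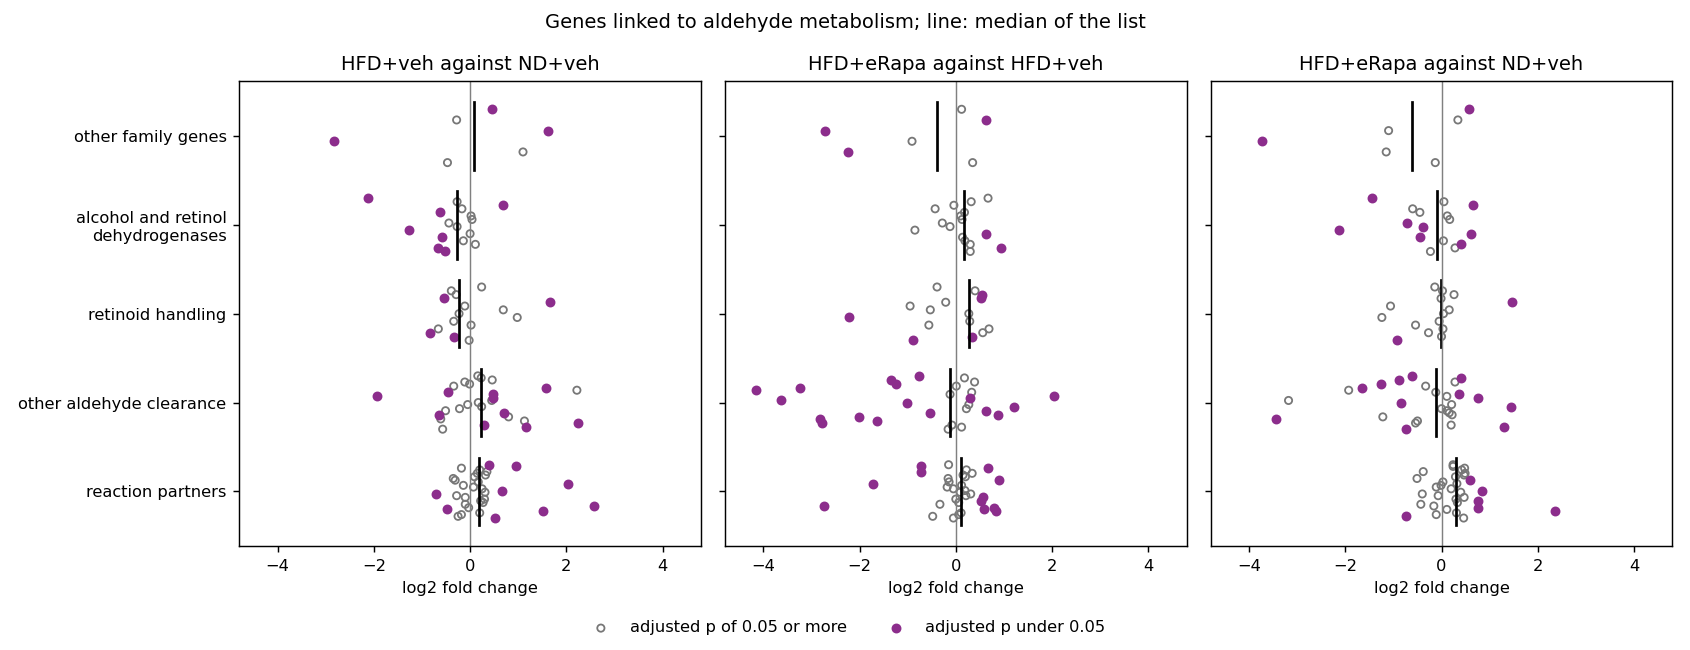
Log2 fold changes of the 96 tested genes of the 5 related lists in the 3 comparisons, with filled points for an adjusted p under 0.05, open points otherwise and vertical lines for list medians. Other aldehyde clearance genes hold 12 filled points left of 0 and 5 right of it in HFD+eRapa against HFD+veh, and the alcohol and retinol dehydrogenases hold 6 to the left and 1 to the right in HFD+veh against ND+veh.

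Reaction partners, the enzymes that make the substrates or use the products of these dehydrogenases, were 32 in number. In HFD+veh against ND+veh 7 rose and 2 fell, in HFD+eRapa against HFD+veh 7 rose and 4 fell, and in HFD+eRapa against ND+veh 5 rose and 1 fell. These are 28.1%, 34.4% and 18.8% called, of which the first 2 shares are near those of all genes. Bhmt, which uses betaine to methylate homocysteine, was at 1079.8 ± 626 (SD, n = 8), 3096 ± 969 (SD, n = 7) and 5502 ± 940.3 CPM (SD, n = 9). It rose by 1.52 in HFD+veh against ND+veh (SE 0.29, adjusted p = 0.00101), by 0.83 in HFD+eRapa against HFD+veh (SE 0.28, adjusted p = 0.0275) and by 2.35 in HFD+eRapa against ND+veh (SE 0.28, adjusted p = 6.8e-06). The rise against HFD+veh was not called without HFD+veh replicate 3, 4 or 6 (adjusted p of 0.0509 to 0.0604), and with the immune score in the model it was 0.46 with an adjusted p of 0.413.

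Partners that lead to fatty aldehydes, the substrates of ALDH3A2, did not all share a direction. Phyh, the first enzyme of peroxisomal alpha-oxidation, had 1181 ± 115 (SD, n = 8), 953 ± 315 (SD, n = 7) and 1777 ± 152 CPM (SD, n = 9). Phyh rose by 0.90 in HFD+eRapa against HFD+veh (SE 0.15, adjusted p = 0.000304), and its treated animals lay above both vehicle groups. Hacl1, the lyase of the same pathway, had 198, 121 and 149.6 CPM and fell by 0.71 in HFD+veh against ND+veh (SE 0.24, adjusted p = 0.0330), a call lost without any of 6 libraries (adjusted p of 0.0546 to 0.0800) and with the immune score in the model (adjusted p = 0.126). Sgpl1, the lyase that splits sphingosine 1-phosphate into a fatty aldehyde, had 94.4, 121 and 72.6 CPM and fell by 0.73 in HFD+eRapa against HFD+veh (SE 0.15, adjusted p = 0.00105), where the groups did not overlap. The Sgpl1 difference was -0.49 with the immune score in the model (adjusted p = 0.0567). By their means, Phyh and Hacl1 were thus both lowest in HFD+veh, and Sgpl1 was highest there. Acmsd, which forms the substrate of ALDH8A1, had 31.1, 26.2 and 18.7 CPM and fell by 0.73 in HFD+eRapa against ND+veh (SE 0.24, adjusted p = 0.0436), a call lost without any of 13 libraries (adjusted p of 0.0501 to 0.0917).

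With the immune score in the model, 13 of the 96 related genes were called in HFD+eRapa against HFD+veh instead of 38. Of all 13847 genes tested, 956 were called instead of 4432, so the drop was not particular to the related genes. The part of other cell types in this drop was not tested. Among the members, both calls of Aldh3a2 in the rapamycin comparisons were kept under 35 of 35 alternatives. So were the calls of Aldh1a1 and Aldh1a7 in HFD+eRapa against ND+veh. Those of Aldh2 and Aldh4a1 in HFD+eRapa against HFD+veh were kept under 34 and 31 of 35. Over the same alternatives the log2 difference of Aldh1b1 ran from 4.08 to 4.64 in HFD+veh against ND+veh, from -2.87 to -2.50 in HFD+eRapa against HFD+veh and from 1.38 to 1.94 in HFD+eRapa against ND+veh.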

How the data were processed

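PolyA RNA from perfused hepatocytes was sequenced as 1 library per animal. The authors aligned reads with STAR in 2-pass mode to mm10 with Gencode M23, filtered alignments with SAMtools 1.1.0 and counted reads per gene with HTSeq 0.11.2, and the deposited count table holds raw whole counts. FPKM values were deposited too, which the authors computed from those alignments by Cufflinks. Whether counting used strand is not given in the sources used here. Depth was 17.7 to 25.9 M counts per library, and libraries of the same group differed by far more than sampling noise (smallest chi-square per degree of freedom 12.9). Labels do not say more on how samples were separated than their replicate numbers, so p-values measure the spread between these samples.

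Counts were tested with edgeR 4.0.16 (R 4.3.3) after filterByExpr by group and TMM scaling, in 1 robust quasi-likelihood fit of all 24 libraries and 3 groups. The Benjamini-Hochberg adjustment covered 13847 genes, and called means an adjusted p under 0.05. Log2 CPM used a prior count of 2. SE is the absolute log2 fold change over the square root of the F statistic. Alternatives were DESeq2 1.42.0, limma 3.58.1 (voom, and log2(FPKM + 1) or log2(FPKM + 0.1)), other filters and scaling, a fit of both compared groups alone, a replicate block, the immune score as a covariate, and leaving out libraries. Scripts were tested on simulated counts.

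Members and gene lists were chosen with earlier results of these data known. In each related list and comparison the called genes with the largest rise and fall, at a mean log2 CPM of at least 3, were named, together with the tested other family genes and, by Spearman correlation with Aldh1b1, the 5 highest and 3 lowest genes with a symbol. Gene positions were read from Gencode M21 on GRCm38, the assembly of mm10, where 55154 of the 55421 gene identifiers were found without version suffixes. Coding sequences were the longest per gene, aligned globally with Biopython. The replicate numbers come from the sample titles, which do not say whether equal numbers pair animals between groups. Deviations from group means correlated by 0.316 on average between equal numbers in HFD+veh against ND+veh. There 3 of 7 animals matched best with their own number. In both rapamycin comparisons the mean correlation was negative and none matched best with its own number. The cause was not tested.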

Additional observations from a re-analysis of the deposited data

Results flagged for a closer look

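A library far from the others of its group was found in 2 of the 30 sets of values (10 genes in 3 groups), where chance alone gives about 1.5. Aldh2 in HFD+veh replicate 6 was at 8.50 log2 CPM, with the other 6 animals at 9.90 to 10.77, which is 361 CPM against 952 to 1749 CPM. That library also had the highest macrophage marker sum of all, and its part in the low value was not tested. Aldh8a1 in ND+veh replicate 4 was at 7.54 log2 CPM, with the other 7 animals at 8.11 to 8.49, which is 187 CPM against 276 to 361 CPM.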

How the results depend on the processing

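When each library was left out in turn, the count of members called ran from 3 to 5 in HFD+eRapa against HFD+veh. It ran from 4 to 4 in HFD+eRapa against ND+veh. Of all genes, 32% and 13.5% were called there in the main fit. These member counts include Aldh1b1, which was chosen on these same data, so that nothing is read from them. No count of members is given for HFD+veh against ND+veh. Related genes called ran from 24 to 39 in HFD+veh against ND+veh. In the HFD+eRapa comparisons they ran from 30 to 44 against HFD+veh and from 23 to 35 against ND+veh. All genes called ran, in the same order, from 2106 to 4479, from 3269 to 5061 and from 1462 to 2232. The 2106 (988 higher and 1118 lower) came without HFD+veh replicate 6, against 3584 (2218 higher and 1366 lower) with it. Of all genes, HFD+veh against ND+veh called 2333 in a fit of both groups alone, 1232 (593 higher and 639 lower) with the immune score in the model, 2242 (1081 higher and 1161 lower) on log2(FPKM + 0.1) and 2300 (1179 higher and 1121 lower) without HFD+veh replicate 6 and ND+veh replicate 4, an alternative chosen after seeing the data. HFD+eRapa against HFD+veh called 4432 of all genes as reported, 2809 with at least 10 counts in every library (10754 genes tested) and 956 (423 higher and 533 lower) with the immune score, where the related genes called were 13 against 38. Some of these fits held fewer genes or libraries, and the cause of these moves was not tested. With the immune score the direction reversed for Aldh3b1 (-0.11 from 1.61) and Aldh18a1 (-1.18 from a positive value) in HFD+veh against ND+veh and for Aldh18a1 (0.08 from -2.25) in HFD+eRapa against HFD+veh.

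The replicate block used the replicate numbers, which are not stated to pair the animals (mean correlation 0.316, -0.245 and -0.203). In the rapamycin comparisons it called 4 and 4 members, Aldh1b1 included, and changed no call of a member. In all 3 comparisons it called 25, 29 and 27 related genes and 2461, 2532 and 1575 of all genes. Among named related genes it ended the calls of Rxra (0.60, adjusted p = 0.0703) and Aldh18a1 (-1.66, 0.185) in HFD+eRapa against HFD+veh, of Aldh3b1 in HFD+veh against ND+veh (1.69, 0.0755) and both calls of Rdh5 (0.58 and 0.63, 0.0723 and 0.0607). Across 3035 recomputed fold changes of named genes, 2892 kept their side of the threshold, 43 were newly called and 97 were no longer called. A further 3 reversed direction with a call before or after the change. Changes of sign without any call were counted among the 2892. Members outside the report's own limits changed as follows. The adjusted p of Aldh7a1 in HFD+eRapa against ND+veh was 0.0228 in a fit of both groups alone. Aldh9a1 in HFD+eRapa against HFD+veh was called without HFD+veh replicate 1, 2, 5 or 7 or HFD+eRapa replicate 2 or 4 (adjusted p of 0.0208 to 0.0493). Depth limits the scarce genes, such as Aldh1l2 and Aldh18a1.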
